A study of Homo sapiens with 6 samples.

Results

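Genes of cholesterol synthesis and of its control by the SREBP transcription factors were described across sorted subpopulations of 2 human breast cancer lines. They are 30 genes, chosen by function and found in the deposited table by Entrez Gene ID: 20 enzymes from acetyl-CoA to cholesterol, 2 sterol carriers, 6 genes of the SREBP machinery and 2 genes of fatty acid synthesis that SREBPs control. All 30 were among the 18795 genes of the table, none was at its floor of 0.1 FPKM in any library, and all 30 were among the 12454 genes tested, which had to average 1 FPKM or more over the libraries.

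Messenger RNA was sequenced from MDA-MB-468 and HCC70, established human lines of basal-like breast cancer. After methanol fixation and antibody staining, flow cytometry sorted the cells into K18+Vim+ cells (positive for keratin 18 and vimentin), K18+K14+ cells (positive for keratin 18 and keratin 14) and K18+ cells (positive for keratin 18). Each population gave 1 library per line, 6 in all, so that n = 2 per population and the lines are the only replicates. The p-values therefore measure how far the lines disagree, not the spread between separate cultures. The labels give no drug or other treatment and no engineered allele in any group. MDA-MB-468 was grown in Leibovitz L15 medium and HCC70 in RPMI medium, per the labels, so line and medium cannot be told apart. Values are FPKM, fragment numbers that the authors scaled to the length of the transcript and the size of the library before they deposited them, so the read numbers are not known. In such bulk samples fewer cells of a kind and less RNA per cell cannot be told apart.

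Cholesterol is built from acetyl-CoA through mevalonate, isoprenoid units and squalene, and the sterol rings are then trimmed in the endoplasmic reticulum. SREBF1 and SREBF2 encode transcription factors held in that membrane with SCAP. When sterols are scarce SCAP carries them to the Golgi, proteases release the active fragment, and it switches on the enzymes of the pathway and sterol uptake. INSIG proteins hold SCAP back when sterols are plentiful, and SREBF1 products act mainly on fatty acid synthesis.

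The libraries were checked against their labels before the values were read. VIM, which encodes vimentin, stood at 259 FPKM in K18+Vim+ cells of MDA-MB-468 and 54.8 FPKM in those of HCC70, against 11.1 to 13.4 FPKM in the other libraries. KRT14 was likewise highest in the K18+K14+ library of each line, at 279 FPKM in MDA-MB-468 and 48.6 FPKM in HCC70. The MDA-MB-468 library labelled K18+Vim+ went against its label in other genes. SMAD4, a gene this line has lost, had 5.19 FPKM there, against 0.31 and 0.566 FPKM in the K18+K14+ and K18+ libraries. RB1 had 6.68 FPKM there against 0.269 and 0.307 FPKM, and EGFR 10.4 FPKM against 70.7 and 153 FPKM. EGFR was also lowest in the K18+Vim+ library of HCC70, at 11.2 against 17.9 and 23.3 FPKM. KRT18, the sort antigen of all 3 populations, stood at 67.7 FPKM in the MDA-MB-468 K18+Vim+ library against 569 and 464 FPKM in the others of that line. The summed level of 10 luminal markers was 338 FPKM against 7357 and 4428 FPKM. The summed level of 6 fibroblast markers was at most 5.13 FPKM and that of 5 immune markers at most 7.96 FPKM in every library. Below, each MDA-MB-468 K18+Vim+ value is that of the library so labelled, and directions drawn from it stand beside these values. Whether that library holds cells of MDA-MB-468 was not tested. Its ratios to the other MDA-MB-468 libraries may therefore not be ratios within 1 line.

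The members covered a wide range of levels, which FPKM sets per transcript length. FDPS, the synthase of farnesyl diphosphate, had the highest mean over the 6 libraries at 255 FPKM, followed by MVD at 187 FPKM and FASN at 155 FPKM. STARD4, a carrier of sterols through the cytosol, had the lowest mean at 3.14 FPKM, and MVK the next lowest at 13.0 FPKM. STARD4 also varied most, with a highest level 13.2 times the lowest, and MVD, at 8.02 times, came next. SCAP, SCD and MBTPS1 varied least, at 1.62, 1.67 and 1.69 times.

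**Figure D1:**
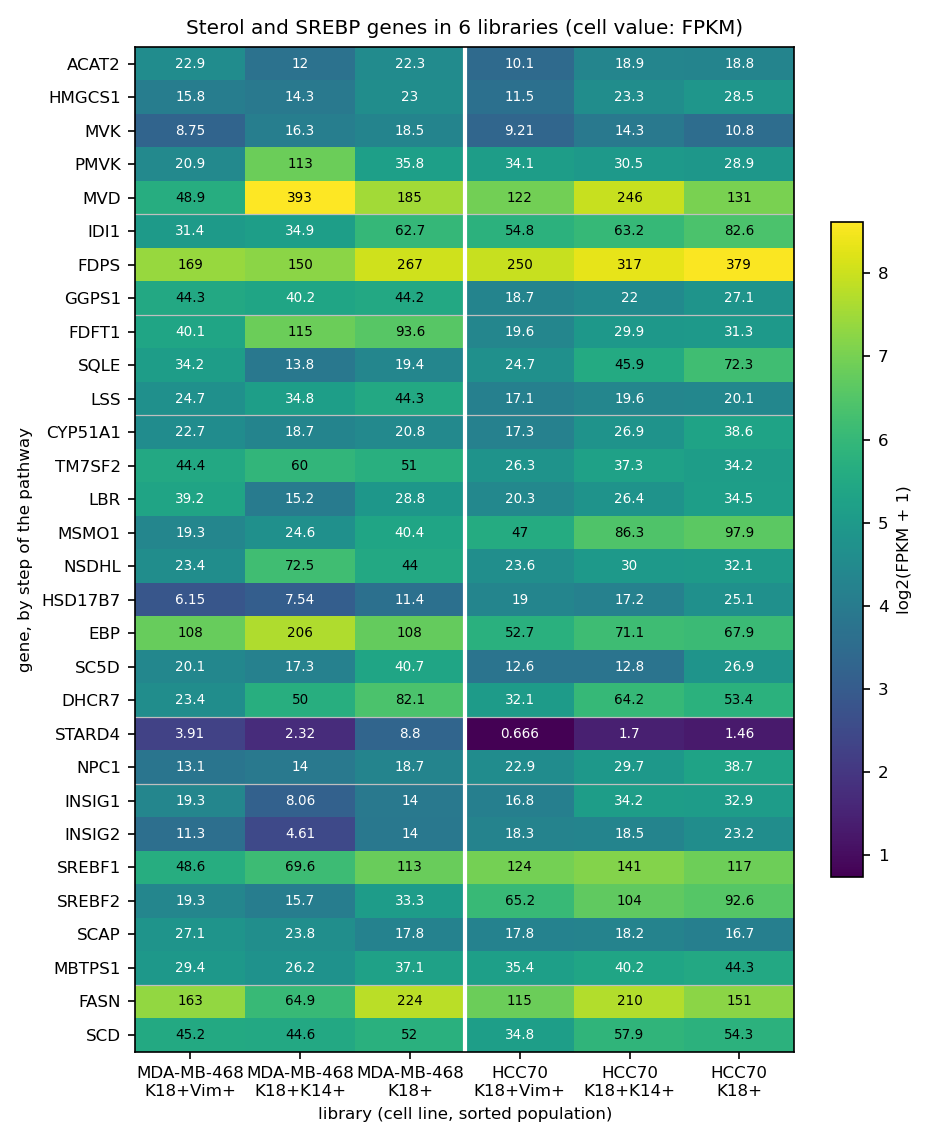
Level of each of the 30 genes in the 6 libraries, with the FPKM printed in each cell and the colour on a log2(FPKM + 1) scale. White lines part the cell lines and grey lines the steps of the pathway. FDPS and MVD are the brightest rows and STARD4 the darkest.

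How sterol genes stand where vimentin is present was asked by setting K18+Vim+ against K18+ cells. Most members had lower values in K18+Vim+ cells of both lines. In HCC70 27 of 30 members were lower than in K18+ cells, against 64.5% of all genes tested, with a median log2 ratio of -0.54 against -0.16 for all genes. In MDA-MB-468 22 of 30 were lower, against 52% of all genes tested, with a median of -0.59 against -0.04. In both lines 20 members were lower, against 33.9% of all genes. In both lines 1 member, SCAP, was higher, against 2055 of the 12454 genes tested. After each library was centred on its median, 24 members were lower in HCC70, 22 in MDA-MB-468 and 17 in both. No member passed the test, as described below. Ratios are differences of log2(FPKM + 1), which understates the differences of low genes.

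By size, 17 of 30 members in HCC70 were lower by at least 0.5 on the log2 scale, against 21.3% of all genes. None was higher by that much, against 7.34% of all genes. In MDA-MB-468 16 of 30 were lower by at least 0.5, against 30.7% of all genes, and 2 were higher by that much, against 25.6%. In both lines 8 members were lower by at least 0.5, against 7.15% of all genes. These 8 were HMGCS1, IDI1, FDPS, FDFT1, MSMO1, SC5D, DHCR7 and STARD4. The sizes did not follow each other between the lines. Across the 30 members the Spearman correlation of the log2 ratios between the lines was -0.22, and across all genes tested 0.04. Genes of 1 library share its depth and preparation, so these correlations are descriptions.

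The early steps make mevalonate and the isoprenoid units. HMGCS1, which joins acetyl-CoA and acetoacetyl-CoA to HMG-CoA, stood at 15.8 FPKM in K18+Vim+ and 23.0 FPKM in K18+ cells of MDA-MB-468, and 11.5 and 28.5 FPKM in those of HCC70. IDI1, the isomerase of isopentenyl diphosphate, stood at 31.4 FPKM in K18+Vim+ and 62.7 FPKM in K18+ cells of MDA-MB-468, and 54.8 and 82.6 FPKM in those of HCC70. FDPS, which joins such units into farnesyl diphosphate, stood at 169 FPKM in K18+Vim+ and 267 FPKM in K18+ cells of MDA-MB-468, and 250.1 and 379 FPKM in those of HCC70. All 3 were lower in K18+Vim+ cells of both lines, with fitted log2 differences of -0.88 ± 0.43 for HMGCS1, -0.78 ± 0.39 for IDI1 and -0.63 ± 0.44 for FDPS (SE, n = 2, limma adjusted p = 0.863 each). ACAT2, which makes acetoacetyl-CoA, was lower in HCC70 at 10.1 against 18.8 FPKM, and in MDA-MB-468 stood at 22.9 against 22.3 FPKM. The mevalonate kinase MVK stood at 8.75 FPKM in K18+Vim+ and 18.5 FPKM in K18+ cells of MDA-MB-468, and 9.21 and 10.8 FPKM in those of HCC70. The decarboxylase MVD was lower in both lines as well, with log2 ratios of -1.89 in MDA-MB-468 and -0.10 in HCC70. PMVK, the kinase between them, had opposite signs in the lines: it stood at 20.9 FPKM in K18+Vim+ and 35.8 FPKM in K18+ cells of MDA-MB-468, and 34.1 and 28.9 FPKM in those of HCC70. GGPS1, which makes geranylgeranyl diphosphate for protein prenylation, stood at 44.3 FPKM in K18+Vim+ and 44.2 FPKM in K18+ cells of MDA-MB-468, and 18.7 and 27.1 FPKM in those of HCC70.

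The next steps commit farnesyl diphosphate to sterols. FDFT1, the squalene synthase, stood at 40.1 FPKM in K18+Vim+ and 93.6 FPKM in K18+ cells of MDA-MB-468, and 19.6 and 31.3 FPKM in those of HCC70, with a fitted log2 difference of -0.93 ± 0.42 (SE, n = 2, limma adjusted p = 0.863). LSS, which closes squalene epoxide into lanosterol, was also lower in both lines, at 24.7 FPKM in K18+Vim+ and 44.3 FPKM in K18+ cells of MDA-MB-468, and 17.1 and 20.1 FPKM in those of HCC70. SQLE, the epoxidase between them, stood at 34.2 FPKM in K18+Vim+ and 19.4 FPKM in K18+ cells of MDA-MB-468, and 24.7 and 72.3 FPKM in those of HCC70. The K18+Vim+ value of SQLE was thus the lower one in HCC70 and the higher one in MDA-MB-468.

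The 9 enzymes that turn lanosterol into cholesterol were all lower in K18+Vim+ cells of HCC70, and 6 of 9 were lower in MDA-MB-468. MSMO1, the methylsterol oxidase, stood at 19.3 FPKM in K18+Vim+ and 40.4 FPKM in K18+ cells of MDA-MB-468, and 47.0 and 97.9 FPKM in those of HCC70. SC5D, the sterol desaturase, stood at 20.1 FPKM in K18+Vim+ and 40.7 FPKM in K18+ cells of MDA-MB-468, and 12.6 and 26.9 FPKM in those of HCC70. DHCR7, which makes cholesterol from its 7-dehydro precursor, stood at 23.4 FPKM in K18+Vim+ and 82.1 FPKM in K18+ cells of MDA-MB-468, and 32.1 and 53.4 FPKM in those of HCC70. MSMO1 and SC5D were lower by about the same ratio in each line, -1.03 and -0.98 in MDA-MB-468 and -1.04 each in HCC70, whereas DHCR7 was lower by 1.77 in MDA-MB-468 and by 0.72 in HCC70. The fitted differences were -1.04 ± 0.40 for MSMO1, -1.01 ± 0.37 for SC5D and -1.24 ± 0.44 for DHCR7 (SE, n = 2, limma adjusted p = 0.863 each). NSDHL and HSD17B7, which act with MSMO1 in removing methyl groups from the sterol ring, were lower in both lines, with log2 ratios of -0.89 and -0.80 in MDA-MB-468 and -0.43 and -0.38 in HCC70. The sterol reductase TM7SF2 had ratios of -0.20 in MDA-MB-468 and -0.36 in HCC70. The demethylase CYP51A1 was lower in HCC70 at 17.3 against 38.6 FPKM, and in MDA-MB-468 stood at 22.7 against 20.8 FPKM. LBR, a sterol reductase that also anchors chromatin at the nuclear envelope, had log2 ratios of 0.43 in MDA-MB-468 and -0.74 in HCC70. EBP, the sterol isomerase, had ratios of 0.00 and -0.36.

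**Figure D2:**
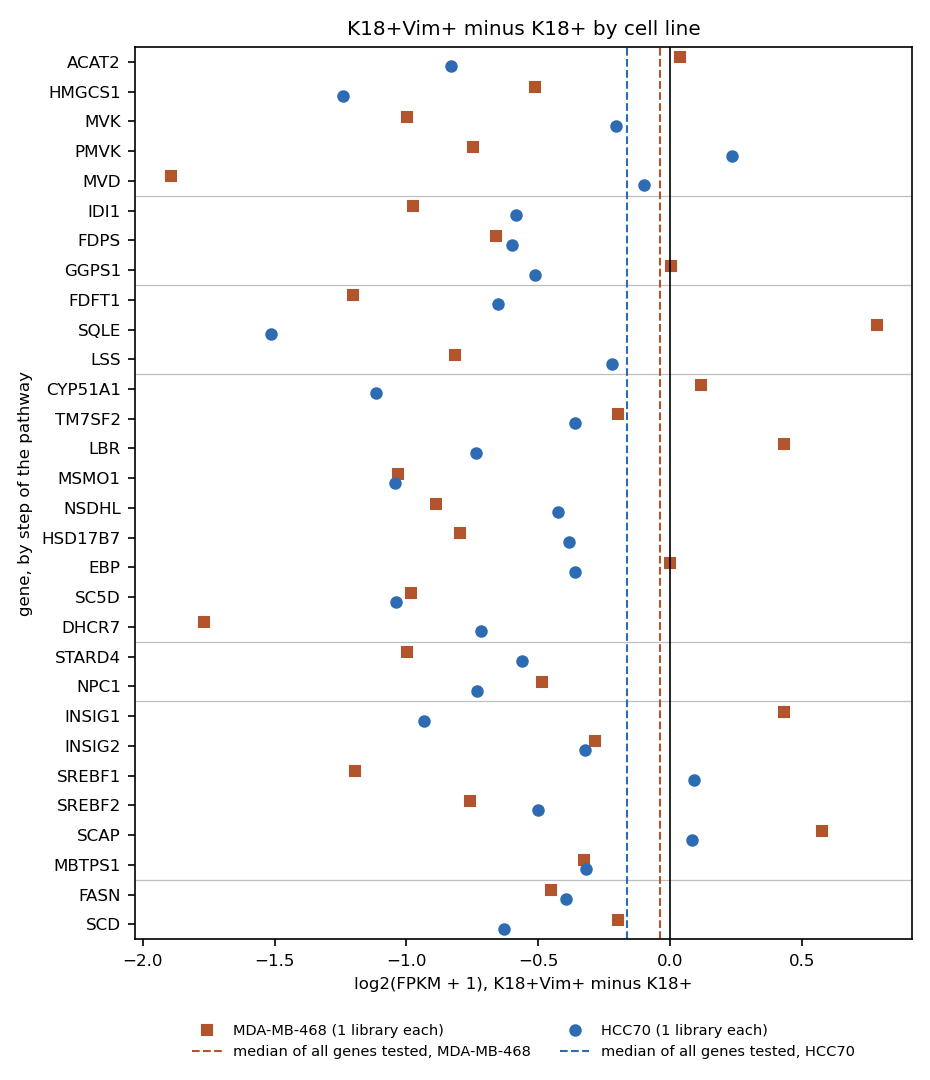
Difference of log2(FPKM + 1) between K18+Vim+ and K18+ cells for each gene, by pathway step from top to bottom, with 1 point per line. Dashed lines mark the median of all genes tested, -0.04 in MDA-MB-468 and -0.16 in HCC70. In HCC70 27 of 30 points lie left of 0 and in MDA-MB-468 22 of 30, and SQLE shows the widest gap between the lines.

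Of the sterol carriers, STARD4 was listed at 3.91 FPKM in K18+Vim+ and 8.80 FPKM in K18+ cells of MDA-MB-468, and 0.666 and 1.46 FPKM in those of HCC70, with a fitted log2 difference of -0.78 ± 0.52 (SE, n = 2, limma adjusted p = 0.863). NPC1, which exports cholesterol from lysosomes, had lower values in K18+Vim+ cells of both lines, with log2 ratios of -0.48 in MDA-MB-468 and -0.73 in HCC70. Among the regulators SREBF2, the main factor of the sterol enzymes, stood at 19.3 FPKM in K18+Vim+ and 33.3 FPKM in K18+ cells of MDA-MB-468, and 65.2 and 92.6 FPKM in those of HCC70. SREBF1 was lower in MDA-MB-468, at 48.6 against 113 FPKM, and at 124 against 117 FPKM in HCC70. INSIG1, itself an SREBP target, had opposite signs, with log2 ratios of 0.43 in MDA-MB-468 and -0.93 in HCC70. INSIG2 and MBTPS1, the protease that makes the first cut in SREBPs, had ratios between -0.33 and -0.29 in both lines. SCAP was higher in K18+Vim+ cells, at 27.1 against 17.8 FPKM for MDA-MB-468 and 17.8 against 16.7 FPKM in HCC70. FASN, the fatty acid synthase, stood at 163 FPKM in K18+Vim+ and 224 FPKM in K18+ cells of MDA-MB-468, and 115 and 151 FPKM in those of HCC70. SCD, which desaturates stearate, had ratios of -0.20 in MDA-MB-468 and -0.63 in HCC70.

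No member and no other gene passed the adjusted threshold of 0.05 in this comparison, so the share of genes called was 0%. With limma 3 members and 532 of all genes had an unadjusted p under 0.05, and the smallest adjusted p was 0.863. Without the HCC70 K18+Vim+ library 1500 genes (12%) passed, none of them a member; K18+Vim+ is then represented by MDA-MB-468 alone. The 10 proliferation markers were lower in 9 of 10 cases in HCC70, with a median log2 ratio of -0.32, and in 5 of 10 in MDA-MB-468, with a median of -0.06. Their part in the sterol values was not tested.

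The stretches before the start sites of 6 of the 8 genes lower by at least 0.5 in both lines are shown, with that of INSIG1. They were picked by hand, and SC5D and FDFT1 of the 8 are not shown. INSIG1, which had opposite signs in the lines, was added because it holds both CACNCCAC and CCAAT. In their full windows, described below, IDI1, SC5D, SREBF2 and SCD hold both as well. They are RefSeq sequences of build GRCh38.p14, whereas the data were aligned to GRCh37. Each runs from 250 bases before 1 listed start site to the base before the next exon in GENCODE 29, and reads 5′ to 3′ on the strand of the gene. Where a gene had several such stretches, the one with the most matches to CACNCCAC and CCAAT together is shown. The match counts per stretch given below were thus raised by this choice and are no measure of the gene. Capitals mark CCAAT, the box bound by the factor NF-Y that works with SREBPs, or CACNCCAC, the core of a sterol regulatory element, on either strand. The stretches are chr4:165327419-165327622 on the plus strand for MSMO1, chr11:71448436-71448643 on the minus strand for DHCR7, chr1:155308616-155308747 on the plus strand for FDPS, chr10:1049171-1049369 on the minus strand for IDI1, chr5:111512591-111512785 on the minus strand for STARD4, chr5:43313513-43313662 on the minus strand for HMGCS1 and chr7:155297628-155297775 on the plus strand for INSIG1.
MSMO1: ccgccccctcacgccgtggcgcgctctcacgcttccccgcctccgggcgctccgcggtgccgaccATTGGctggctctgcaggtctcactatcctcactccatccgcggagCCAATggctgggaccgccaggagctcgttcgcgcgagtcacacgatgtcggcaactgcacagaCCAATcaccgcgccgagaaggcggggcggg
DHCR7: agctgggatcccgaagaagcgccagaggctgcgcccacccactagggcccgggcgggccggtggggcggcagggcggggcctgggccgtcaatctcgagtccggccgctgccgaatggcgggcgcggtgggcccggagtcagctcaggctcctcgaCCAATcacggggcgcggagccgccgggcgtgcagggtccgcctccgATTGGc
FDPS: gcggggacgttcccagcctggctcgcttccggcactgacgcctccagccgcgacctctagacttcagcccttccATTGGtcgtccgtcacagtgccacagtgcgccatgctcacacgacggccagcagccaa
IDI1: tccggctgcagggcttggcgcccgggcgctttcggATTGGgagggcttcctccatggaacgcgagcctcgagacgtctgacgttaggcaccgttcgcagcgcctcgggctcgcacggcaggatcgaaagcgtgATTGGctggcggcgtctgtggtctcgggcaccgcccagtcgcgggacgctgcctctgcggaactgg
STARD4: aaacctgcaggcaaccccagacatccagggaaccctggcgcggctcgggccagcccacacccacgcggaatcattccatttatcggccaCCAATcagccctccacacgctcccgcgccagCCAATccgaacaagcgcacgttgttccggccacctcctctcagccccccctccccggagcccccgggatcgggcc
HMGCS1: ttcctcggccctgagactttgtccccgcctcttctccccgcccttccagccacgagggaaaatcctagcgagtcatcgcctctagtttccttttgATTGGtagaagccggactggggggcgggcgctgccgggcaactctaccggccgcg
INSIG1: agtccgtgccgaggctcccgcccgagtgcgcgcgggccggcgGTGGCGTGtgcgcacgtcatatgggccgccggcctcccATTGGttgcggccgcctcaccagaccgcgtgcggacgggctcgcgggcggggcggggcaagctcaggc
MSMO1 carries 3 CCAAT boxes in this stretch, DHCR7, IDI1 and STARD4 carry 2 each, and FDPS, HMGCS1 and INSIG1 carry 1 each. INSIG1 also holds 1 match to CACNCCAC, and the other 6 stretches hold none. In the full window of 250 bases before to 50 after the start, 18 of the 26 members with a listed promoter (69.2%) held CCAAT in at least 1 window, against 43.5% of tested genes with a promoter and 34.6% of all 35116 promoters. CACNCCAC was found in 5 of 26 members (19.2%), namely IDI1, SC5D, INSIG1, SREBF2 and SCD, against 7.91% of tested genes and 5.87% of promoters. The longer TCACCCCAC, which contains a match to CACNCCAC, was found in SREBF2 alone among the members and in 0.43% of promoters. A total of 7 patterns was searched, and these shares are descriptions of letters in the window.

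How the genes stand where keratin 14 is present was asked by setting K18+K14+ against K18+ cells. Its K18+ libraries are those of the comparison above. The counts were unequal between the lines: in MDA-MB-468 23 of 30 members were lower in K18+K14+ cells, against 58.1% of all genes, and in HCC70 16 of 30, against 64.7%. Median log2 ratios were -0.51 in MDA-MB-468, against -0.17 for all genes, and -0.05 in HCC70, against -0.15. In both lines 14 members were lower, against 43.7% of all genes, and 5 were higher, against 20.2%. The 5 were PMVK, MVD, TM7SF2, EBP and SCAP. After centring on library medians, 18 members were lower in MDA-MB-468, 11 in HCC70 and 9 in both, and the median in HCC70 turned to 0.185. The difference between the lines was not tested.

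By size, 15 of 30 members in MDA-MB-468 were lower by at least 0.5, against 34.5% of all genes, and 4 were higher by that much, against 22.3%. In HCC70 4 of 30 were lower by at least 0.5, against 18.9% of all genes, and 1 was higher by that much, against 5.42%. SC5D, the desaturase, stood at 17.3 FPKM in K18+K14+ and 40.7 FPKM in K18+ cells of MDA-MB-468, and 12.8 and 26.9 FPKM in those of HCC70. HSD17B7, the ketosteroid reductase of sterol demethylation, stood at 7.54 FPKM in K18+K14+ and 11.4 FPKM in K18+ cells of MDA-MB-468, and 17.2 and 25.1 FPKM in those of HCC70. MVD, which makes isopentenyl diphosphate, went the other way at 393 FPKM in K18+K14+ and 185 FPKM in K18+ cells of MDA-MB-468, and 246 and 131 FPKM in those of HCC70. SC5D and HSD17B7 were the members lower by at least 0.5 in both lines, and MVD the member higher by that much in both. Their fitted log2 differences were -1.10 ± 0.37, -0.53 ± 0.37 and 0.99 ± 0.59 (SE, n = 2, limma adjusted p = 0.855 each).

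The MDA-MB-468 K18+K14+ library held the extremes of several members. PMVK, the kinase between MVK and MVD, stood at 113 FPKM there against 35.8 FPKM in K18+ cells, and at 30.5 against 28.9 FPKM in HCC70. EBP stood at 206 FPKM in K18+K14+ and 108 FPKM in K18+ cells of MDA-MB-468, and 71.1 and 67.9 FPKM in those of HCC70. NSDHL stood at 72.5 FPKM in K18+K14+ and 44.0 FPKM in K18+ cells of MDA-MB-468, and 30.04 and 32.1 FPKM in those of HCC70. FASN went the other way, at 64.9 against 224 FPKM for MDA-MB-468 and 210.1 against 151 FPKM in HCC70. STARD4, INSIG2 and SREBF2 were also lower in MDA-MB-468 K18+K14+ cells, with log2 ratios of -1.56, -1.42 and -1.04, and had 0.14, -0.31 and 0.16 in HCC70. In MDA-MB-468 15 of 30 members had their lowest value of the 3 populations in K18+K14+ cells, against 42.3% of all genes. Transcript length moved with this comparison: across all genes the Spearman correlation of length with the log2 ratio was -0.34 in MDA-MB-468 and -0.22 in HCC70, and across the members -0.27 and 0.13. Its part in the members' values was not tested.

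**Figure D3:**
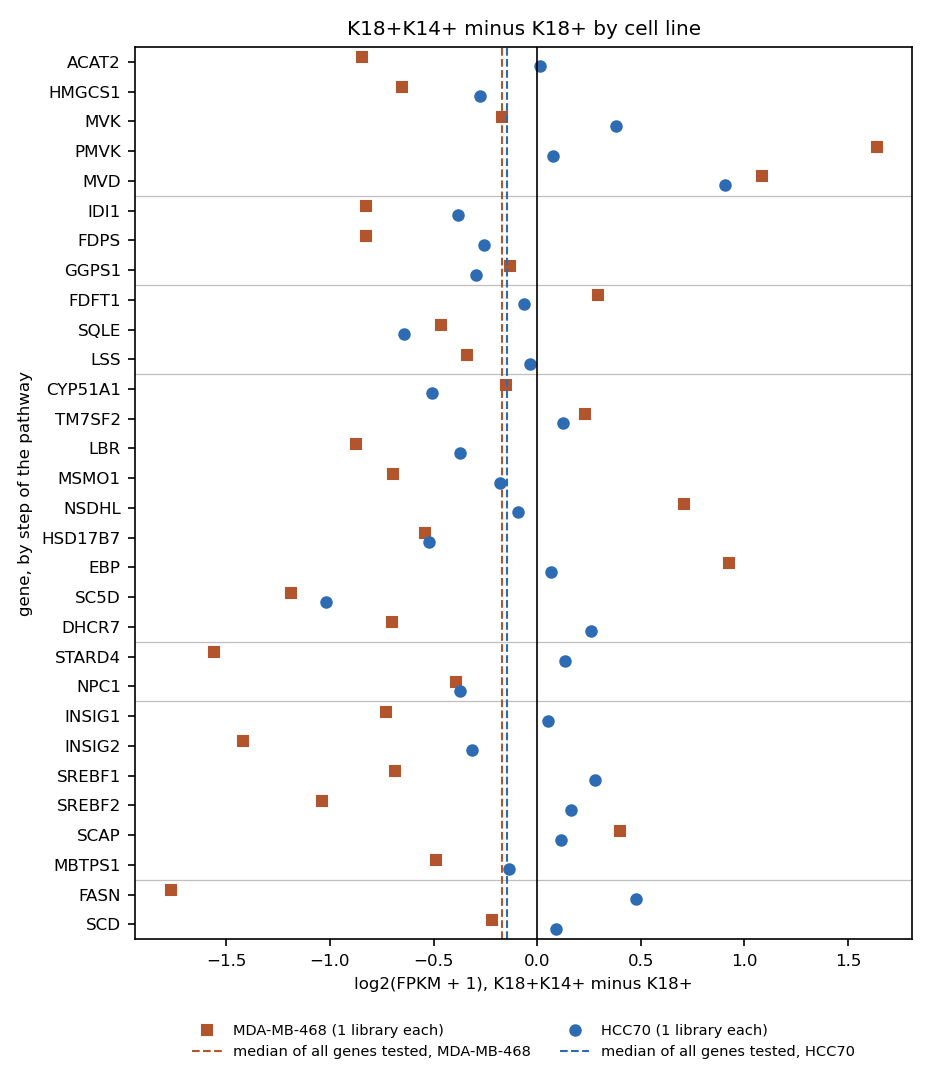
Difference of log2(FPKM + 1) between K18+K14+ and K18+ cells for each gene, with 1 point per line and dashed lines at the median of all genes tested, -0.17 in MDA-MB-468 and -0.15 in HCC70. SC5D lies left and MVD right of 0 by a similar amount in both lines, while FASN, PMVK and STARD4 lie farther from 0 in MDA-MB-468 than in HCC70.

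With limma no member and no other gene passed in this comparison (0% called), and 1 member and 428 of all genes had an unadjusted p under 0.05. The smallest adjusted p was 0.855. Without the HCC70 K18+K14+ library 1 gene passed, which was no member.

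K18+Vim+ cells were also set against K18+K14+ cells; the K18+Vim+ libraries are the ones already used above, so these ratios are not separate evidence. In HCC70 28 of 30 members were lower in K18+Vim+ cells, against 51.7% of all genes, and 14 were lower by at least 0.5, against 11.2%. The median log2 ratio in HCC70 was -0.45, against -0.02 for all genes. In MDA-MB-468 14 of 30 were lower, against 45.5% of all genes, 8 of them by at least 0.5, against 30.2%, and the median was 0.08 against 0.12. In both lines 12 members were lower, against 23.7% of all genes, and none was higher, against 3192 of the 12454 genes tested. After centring, 28 were lower in HCC70, 21 in MDA-MB-468 and 19 in both. MVD had the widest gap, at 48.9 FPKM in K18+Vim+ and 393 FPKM in K18+K14+ cells of MDA-MB-468, and 122 and 246 FPKM in those of HCC70. DHCR7 stood at 23.4 FPKM in K18+Vim+ and 50.05 FPKM in K18+K14+ cells of MDA-MB-468, and 32.1 and 64.2 FPKM in those of HCC70. FDFT1 stood at 40.1 FPKM in K18+Vim+ and 115 FPKM in K18+K14+ cells of MDA-MB-468, and 19.6 and 29.9 FPKM in those of HCC70. The K18+Vim+ value was the lower in each line for these 3 genes and for MVK. Fitted log2 differences were -1.99 ± 0.59 for MVD, -1.02 ± 0.44 for DHCR7, -1.04 ± 0.42 for FDFT1 and -0.71 ± 0.39 for MVK (SE, n = 2, limma adjusted p = 0.682 each).

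In limma no gene passed in this comparison (0% called). An unadjusted p under 0.05 was found for 2 members and 680 of all genes, and the smallest adjusted p over all genes was 0.547. Without the HCC70 K18+Vim+ library 1988 genes (16%) passed with limma, among them 2 of 30 members, MVD, with a log2 difference of -2.93, and PMVK, with -2.00. Here too MDA-MB-468 alone stands for K18+Vim+.

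Put in order within each line, K18+Vim+ was the lowest of the 3 populations for 26 of 30 members in HCC70, against 42.6% of all genes. The 4 exceptions were PMVK, HSD17B7, SREBF1 and SCAP. In MDA-MB-468 it was the lowest for 13 of 30, against 35.3% of all genes. In HCC70 the summed level of the 30 members was 1274 FPKM in K18+Vim+, 1859 FPKM in K18+K14+ and 1813 FPKM in K18+ cells. In MDA-MB-468 it was 1148, 1683 and 1775 FPKM. The library medians over the genes tested were 10.0, 9.99 and 11.8 FPKM in HCC70 and 9.53, 8.12 and 10.6 FPKM in MDA-MB-468, in the same order. With centring, K18+Vim+ was the lowest for 23 of 30 members in HCC70 and for 18 of 30 in MDA-MB-468. The 10 proliferation markers summed to 314, 410 and 390 FPKM in HCC70 and to 686, 605 and 698 FPKM in MDA-MB-468, and their part in these orders was not tested.

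The lines themselves differed in single members. Between MDA-MB-468 and HCC70, 4 of 30 members passed the test, near the 12.2% of all genes that passed with limma, so the count of members is not a result about the pathway. SREBF2 stood at 19.3, 15.7 and 33.3 FPKM in the K18+Vim+, K18+K14+ and K18+ libraries of MDA-MB-468, against 65.2, 104 and 92.6 FPKM in those of HCC70. MSMO1 stood at 19.3, 24.6 and 40.4 FPKM in the K18+Vim+, K18+K14+ and K18+ libraries of MDA-MB-468, against 47.0, 86.3 and 97.9 FPKM in those of HCC70. HSD17B7 stood at 6.15, 7.54 and 11.4 FPKM in the K18+Vim+, K18+K14+ and K18+ libraries of MDA-MB-468, against 19.0, 17.2 and 25.1 FPKM in those of HCC70. These 3 were lower in MDA-MB-468 in all 3 populations, as were 28.5% of all genes. The log2 differences were -1.93 ± 0.37 for SREBF2 (limma adjusted p = 0.0282), -1.42 ± 0.32 for MSMO1 (limma adjusted p = 0.0401) and -1.22 ± 0.30 for HSD17B7 (limma adjusted p = 0.0497) (SE, n = 3 libraries per line, 1 of each population). Neither line was replicated. FDFT1 was the member that rose, at 40.1, 115 and 93.6 FPKM in the K18+Vim+, K18+K14+ and K18+ libraries of MDA-MB-468, against 19.6, 29.9 and 31.3 FPKM in those of HCC70. Its log2 difference was 1.48 ± 0.34 (SE, limma adjusted p = 0.0414). It was higher in all 3 populations, as were 28% of all genes.

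All 4 of these calls were lost when any 1 of the K18+ or K18+K14+ libraries was left out, with limma adjusted p between 0.106 and 0.254, and they were kept without either K18+Vim+ library. Without the MDA-MB-468 library labelled K18+Vim+ the calls were 7 of 30 members, where 26.9% of all genes passed with limma. The further ones were SQLE, INSIG1 and INSIG2, with log2 differences of -1.75, -1.57 and -1.24. SQLE stood at 34.2, 13.8 and 19.4 FPKM in the K18+Vim+, K18+K14+ and K18+ libraries of MDA-MB-468, against 24.7, 45.9 and 72.3 FPKM in those of HCC70, and INSIG1 stood at 19.3, 8.06 and 14.04 FPKM in the K18+Vim+, K18+K14+ and K18+ libraries of MDA-MB-468, against 16.8, 34.2 and 32.9 FPKM in those of HCC70. Both were lower in MDA-MB-468 in K18+K14+ and K18+ cells and higher in K18+Vim+ cells.

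In all 3 populations 9 members were lower in MDA-MB-468, against 28.5% of all genes, and 8 were higher, against 28%. Beside the calls, the lower ones were NPC1, INSIG2, FDPS, IDI1, MBTPS1 and SREBF1, and the higher ones GGPS1, EBP, TM7SF2, LSS, SC5D, STARD4 and SCAP. NPC1 stood at 13.1, 14.04 and 18.7 FPKM in the K18+Vim+, K18+K14+ and K18+ libraries of MDA-MB-468, against 22.9, 29.7 and 38.7 FPKM in those of HCC70. INSIG2 stood at 11.3, 4.61 and 14 FPKM in the K18+Vim+, K18+K14+ and K18+ libraries of MDA-MB-468, against 18.3, 18.5 and 23.2 FPKM in those of HCC70. EBP stood at 108, 206 and 108 FPKM in the K18+Vim+, K18+K14+ and K18+ libraries of MDA-MB-468, against 52.7, 71.1 and 67.9 FPKM in those of HCC70. None of these 3 genes passed: the log2 differences were -0.93 for NPC1 (limma adjusted p = 0.0891), -1.05 for INSIG2 (limma adjusted p = 0.102) and 1.07 for EBP (limma adjusted p = 0.0897). For the others with the same sign in all 3 populations, other than SREBF1, the limma adjusted p was 0.211 for FDPS, 0.197 for IDI1, 0.436 for MBTPS1, 0.103 for GGPS1, 0.191 for TM7SF2, 0.136 for LSS, 0.254 for SC5D, 0.0931 for STARD4 and 0.464 for SCAP.

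**Figure D4:**
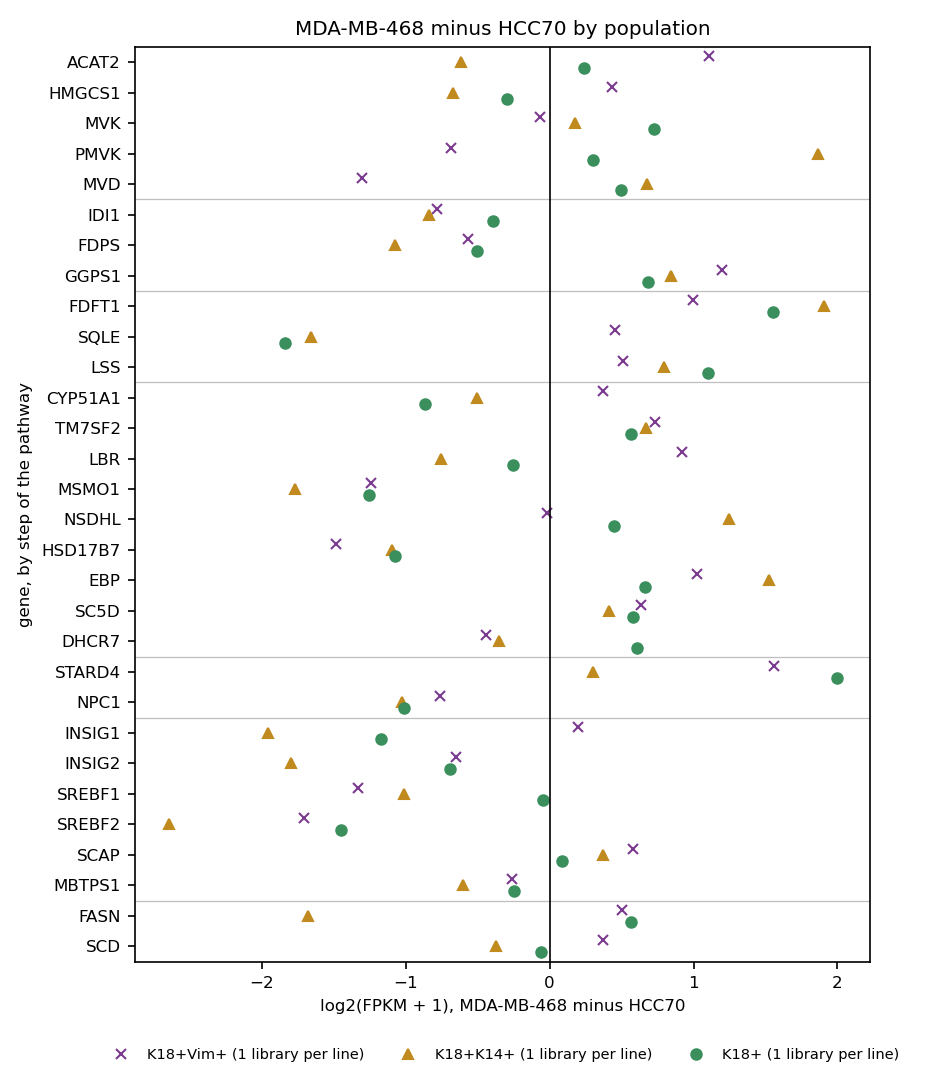
Difference of log2(FPKM + 1) between MDA-MB-468 and HCC70 for each gene, with 1 point per population. SREBF2, MSMO1 and HSD17B7 lie left of 0 by more than 1 in all 3 populations and FDFT1 lies right of 0, while SQLE, INSIG1 and PMVK lie on both sides.

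Genes around the pathway were described from 6 lists with 77 genes in the table. Of 14 tested genes of SREBP1 and fatty acid synthesis, 13 were lower in K18+Vim+ than in K18+ cells of HCC70 and 8 in MDA-MB-468, 7 in both lines and none higher in both. ACSS2, which makes acetyl-CoA from acetate, stood at 18.6 against 93.6 FPKM in the MDA-MB-468 pair and 90.9 against 161 FPKM in the HCC70 pair. ACSL1, which activates fatty acids, stood at 11.7 against 38.5 FPKM in the MDA-MB-468 pair and 46.3 against 75.7 FPKM in the HCC70 pair. Both K18+Vim+ values lay below their K18+ partners, as did those of the phosphatidate phosphatase LPIN1. Of 9 genes of liver X receptors, oxysterols and efflux, 6 were lower in both lines and none higher, for example MYLIP, the ligase that degrades lipoprotein receptors, at 4.80 against 10.1 FPKM in the MDA-MB-468 pair and 5.31 against 9.82 FPKM in the HCC70 pair. Of 14 genes of sterol uptake, transport and esterification 6 were lower in both lines and 2 higher. One of the higher ones was NPC2, which hands cholesterol to NPC1 in lysosomes, at 142 against 74.9 FPKM in the MDA-MB-468 pair and 121 against 81.0 FPKM in the HCC70 pair. Of 14 genes of SREBP processing and sterol-regulated degradation 6 were lower in both lines and 2 higher. One of the higher ones was SPRING1, a cofactor of SREBP cleavage, at 8.67 against 5.33 FPKM in the MDA-MB-468 pair and 7.62 against 5.09 FPKM in the HCC70 pair. Of 13 genes of other isoprenoid branches 6 were lower and 1 higher, and of 8 genes of mevalonate supply 3 were lower and 1 higher. The share lower in both lines was 33.9% over all genes, and 2055 of the 12454 genes tested were higher in both. No gene of these lists passed in any comparison of populations.

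**Figure D5:**
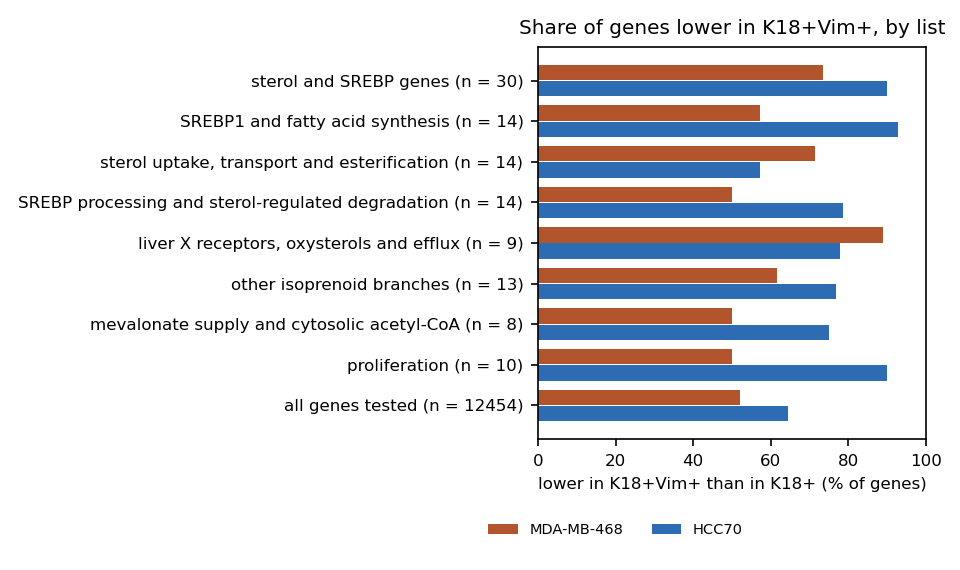
Share of the tested genes of each list that were lower in K18+Vim+ than in K18+ cells, with 1 bar per line and all genes tested in the bottom row. The sterol and SREBP genes reach 90% in HCC70 and 73.3% in MDA-MB-468, against 64.5% and 52% of all genes. SREBP1 and fatty acid synthesis reaches 92.9% and 57.1%, liver X receptors 77.8% and 88.9%, and proliferation 90% and 50%, in the same order. The remaining lists lie below the sterol and SREBP genes in both lines.

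In K18+K14+ against K18+ cells the counts lower and higher in both lines were 6 and 1 of 14 for SREBP1 and fatty acid synthesis, 11 and 1 of 13 for other isoprenoid branches, 8 and 1 of 14 for sterol uptake, 9 and 1 of 14 for SREBP processing, 4 and 3 of 9 for liver X receptors, and 1 and 3 of 8 for mevalonate supply. Over all genes 43.7% were lower and 20.2% higher in both lines. PNPLA3, a lipid droplet protein, was the higher one of the first list, at 7.40 against 2.10 FPKM in the MDA-MB-468 pair and 15.1 against 9.59 FPKM in the HCC70 pair, and ELOVL5, a fatty acid elongase, was among the lower ones, at 14.6 against 36.9 FPKM in the MDA-MB-468 pair and 27.7 against 42.3 FPKM in the HCC70 pair. PNPLA3 was also lower in K18+Vim+ than in K18+K14+ cells, at 1.77 against 7.40 FPKM in the MDA-MB-468 pair and 4.04 against 15.1 FPKM in the HCC70 pair. Between the lines 8 of the 72 tested genes of these lists fell in MDA-MB-468 and none rose; this share of 11.1% is near the 12.2% of all genes, so the count is not a result about these lists. The desaturase gene FADS2, which makes polyunsaturated fatty acids, was listed at 8.52, 1.58 and 0.751 FPKM in MDA-MB-468, against 41.0, 42.2 and 42.9 FPKM in HCC70, in the order K18+Vim+, K18+K14+ and K18+. OXCT1, which activates ketone bodies, stood at 7.45, 9.59 and 20.3 FPKM in MDA-MB-468, against 42.0, 60.4 and 83.2 FPKM in HCC70. The log2 differences were -3.62 ± 0.51 for FADS2 (limma adjusted p = 0.0148) and -2.29 ± 0.31 for OXCT1 (limma adjusted p = 0.0141). The other 6 were ACSL1, LPIN1, GRAMD1C, VLDLR, CYP7B1 and FNTB, and these 8 were named after their values were seen.

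Some members share exon positions with other genes. By GENCODE 29, 14 of 30 members overlap an exon of another gene, 13 of them on the opposite strand and 3 on the same strand. Whether the library kit marks strand is not given in the sources used here, so reads of these pairs cannot be told apart, and the levels of members such as ACAT2 with TCP1, MVK with MMAB and GGPS1 with TBCE are uncertain. SREBF2 and FDFT1, both called between the lines, overlap other genes too. So do HMGCS1, IDI1, FDPS and STARD4, which like FDFT1 were lower by at least 0.5 in K18+Vim+ than in K18+ cells of both lines. FDPS and HSD17B7 have near-identical pseudogene copies, which makes their levels uncertain as well.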

How the data were processed

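The authors deposited 1 table of FPKM, with rows by Entrez Gene ID and 6 libraries as columns. Per the submitters' processing notes, TopHat2 aligned the reads to GRCh37; no version, counting tool or annotation is given in the sources used here. Fixation in methanol can break RNA, which acts differently on long and short transcripts. The read numbers are not known, which leaves the depth unknown, and counting intervals cannot be given. Of 18807 rows, 7 blank ones were dropped and 5 IDs with 2 rows were reduced to 1 each, leaving 18795 genes, of which 18732 matched a symbol.

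The 12454 genes that averaged 1 FPKM or more were taken as log2(FPKM + 1) from the deposited values and modelled in limma 3.58.1 (R 4.3.3; lmFit, then eBayes with a trend); terms were population and line, with 2 residual degrees of freedom. P-values were two-sided and adjusted by Benjamini-Hochberg over all genes tested at 0.05. The lines pair the populations, since each line gave 1 library of each. Fitted differences are printed for members with the same sign in both lines and a smaller log2 ratio of at least 0.5, and for the lines for up to 8 members per direction with the same sign in all 3 populations; other genes named outside this rule are said to be so. Alternatives were a pseudocount of 0.1 or 5, a minimum of 5 FPKM, no filter, quantile normalization, centring on library medians, removal of the length trend, limma without trend, no term for the line, 4 libraries only and leaving out each library. Counts per line and of lowest populations were added after the data were seen. The members and lists were chosen with earlier results of these data known. Promoters came from RefSeq (GRCh38.p14), in which 26 of 30 members were matched. Tables were handled with pandas 2.3.3 and scipy 1.17.1 in Python 3.11.15, and figures drawn with matplotlib 3.10.9.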

Additional observations from a re-analysis of the deposited data

Results flagged for a closer look

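Some members moved in opposite directions in the lines by at least 0.5 on the log2 scale; these differences between the lines were not tested, and each involves the K18+Vim+ library of MDA-MB-468, which stood apart from its line. In K18+Vim+ against K18+ cells, SQLE had log2 ratios of 0.78 in MDA-MB-468 and -1.51 in HCC70. In K18+Vim+ against K18+K14+ cells, the MDA-MB-468 and HCC70 ratios were 0.88 and -0.84 for ACAT2, 1.25 and -0.87 for SQLE, 0.56 and -0.70 for STARD4, 1.16 and -0.99 for INSIG1, and 1.32 and -0.87 for FASN. The level of SQLE in the K18+K14+ and K18+ libraries was 13.8 and 19.4 FPKM in MDA-MB-468, and 45.9 and 72.3 FPKM in HCC70. In the K18+Vim+ libraries it was 34.2 FPKM in MDA-MB-468 and 24.7 FPKM in HCC70.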

How the results depend on the processing

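Leaving out each library in turn gave 0 to 1500 genes past the threshold for K18+Vim+ against K18+, 0 to 1 for K18+K14+ against K18+, 0 to 1988 for K18+Vim+ against K18+K14+ and 206 to 3360 for the lines, and 0 to 2 members for K18+Vim+ against K18+K14+ and 0 to 8 for the lines; the cause was not tested. With no filter on low values limma passed 0 genes and 0 members between the lines, and after centring 2 members passed. Centring moved the members lower in both lines to 9 for K18+K14+ against K18+ and to 19 for K18+Vim+ against K18+K14+, against 14 and 12 as deposited. For K18+K14+ against K18+ in MDA-MB-468 it moved the median of all genes to 0.13 from -0.17. The call of HSD17B7 between the lines was also lost without trend (limma adjusted p = 0.0556), at a pseudocount of 0.1 (0.0512), after quantile normalization (0.0726) and after centring (0.0731), where MSMO1 was lost too (0.0539); over all alternatives the adjusted p ranged from 0.0304 to 0.254 for HSD17B7 and from 0.0154 to 0.204 for MSMO1. Over 31 fitted differences of members, 433 recomputed values kept direction and side of the threshold, 25 lost the call, 4 gained it and 0 reversed. The differences were picked for having the same sign in both lines or in every population, so a reversal could hardly occur. Those between populations had not passed in the main fit, so the kept values include differences that only stayed uncalled. The tally is therefore no measure of how firm the directions are. Fits without the replicate block gave 0 calls in each comparison of populations. With the block there were 0 as well, so these counts could show no loss. The lines have no such fit, and counts in both lines have no value without a library. The unknown depth leaves the error of low genes such as STARD4 unknown.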
